A study of Mus musculus with 8 samples.

Results

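The genes Ifitm1, Ifitm2 and Ifitm3 of the mouse were followed through 8 libraries of embryo RNA. They are 3 of the 24791 genes in the expression table. The members were chosen by gene symbol, and because the measured level of Ifitm3 was very high in the 2C libraries and near 0 in the 8C libraries. The contrast of 8C with 2C is therefore given for the members as a description without a test.

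IFITM genes encode small interferon-induced transmembrane proteins that share the CD225 domain. They sit in plasma and endosomal membranes and hinder the fusion of enveloped viruses with the cell, and cysteines near their membrane segment are palmitoylated. Ifitm3, also called fragilis, is known in the mouse embryo as an early mark of cells that become primordial germ cells, where Ifitm1 is also made. Interferons bind receptors that signal through JAK kinases and STAT factors, and the STAT complexes bind a DNA motif called the interferon-stimulated response element (ISRE).

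The libraries were made by Smart-seq, which amplifies full-length cDNA from very little RNA, from C57BL/6 embryos, and came as pairs in 4 groups labelled 2C, 8C, CX22 and CX45. Here 2C and 8C are taken to stand for embryos of 2 and 8 cells. What CX22 and CX45 mean, and which group served as control, cannot be read from the labels. The study as a whole dealt with RNA polymerase I and the architecture of chromatin in early embryos. Levels were in FPKM, that is, fragments divided by transcript length and by library size.

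From the step sizes of low FPKM values, the libraries held about 9780000 to 20260000 fragments, and limits drawn from these cover counting error only. The pair of 2C libraries differed by little more than sampling noise (median chi-square 1.16 times that of chance, against 26.6 to 103 in the other groups) and was counted as 1 sample. Sums of stage markers followed the labels: 6 oocyte genes summed to 2565 and 2578 FPKM in 2C and to 24.1 and 27.9 in 8C. Those of 6 genes of the 8-cell stage were 78.0 and 80.0 in 2C and 1312 and 1639 in 8C. Not every gene did so: Zp3 of the oocyte list stood at 14.7 and 15.5 in 2C and 13.3 and 13.4 in 8C. Cdh1 of the 8-cell list stood at 11.5 and 11.1 in 2C and 11.3 and 12.2 in 8C. The CX22 libraries lay near 2C on these sums (oocyte genes 1915 and 2514, 8-cell genes 85.1 and 63.0). The CX45 libraries lay nearer to 8C on them (oocyte genes 133 and 153, 8-cell genes 932 and 1210). Genes of the 2-cell stage did not place both CX45 libraries so. The 6 genes of that list summed to 471 and 485 FPKM in 2C and to 3.08 and 6.02 in 8C. In CX45 they came to 68.0 and 750, and in CX22 to 689 and 549. Nothing in the labels says that the libraries of a group came from separate embryo pools, so the spread behind the p-values is that of these samples and may be technical.

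In the mm9 coordinates of the table the family lies on chromosome 7. Ifitm2 spans 148140738 to 148141860, Ifitm1 148153328 to 148155726, Ifitm3 148195489 to 148196643, and the family member Ifitm6 148201711 to 148202791. The gap from Ifitm2 to Ifitm1 is 11.5 kb, from Ifitm1 to Ifitm3 39.8 kb, and from Ifitm3 to Ifitm6 5.07 kb. The stretches around their start sites are printed here because these 4 neighbours had different and in part opposite patterns of expression. They come from RefSeq (GRCm38.p6), run from 100 bases before to 29 bases after the first transcribed base, which is counted as 0, and are written on the strand of the gene. All 4 genes were matched by symbol. Capitals mark the core of the ISRE, searched on both strands as a pair of GAAA runs with any 2 bases between them.
Ifitm2, chr7:140955932-140956061, minus strand: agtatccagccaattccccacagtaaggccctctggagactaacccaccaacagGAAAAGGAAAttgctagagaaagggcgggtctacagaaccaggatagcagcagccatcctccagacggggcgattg
Ifitm1, chr7:140967976-140968105, plus strand: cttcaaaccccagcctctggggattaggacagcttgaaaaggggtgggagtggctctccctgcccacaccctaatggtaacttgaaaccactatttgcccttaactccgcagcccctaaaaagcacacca
Ifitm3, chr7:141010715-141010844, minus strand: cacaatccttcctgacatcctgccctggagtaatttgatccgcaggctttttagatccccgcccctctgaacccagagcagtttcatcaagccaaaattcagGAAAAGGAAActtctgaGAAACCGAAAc
Ifitm6, chr7:141016863-141016992, minus strand: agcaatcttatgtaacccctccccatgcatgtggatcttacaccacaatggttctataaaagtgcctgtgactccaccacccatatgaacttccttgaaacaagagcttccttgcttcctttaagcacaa

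The ISRE core was found once in the Ifitm2 window, at bases -46 to -37 as GAAAAGGAAA. In the Ifitm3 window it was found at bases 2 to 11 with the same letters and at bases 19 to 28 as GAAACCGAAA. Neither the Ifitm1 nor the Ifitm6 window of 300 bases (250 before, 50 from the start on) held these letters, and 3.44% of 32851 RefSeq windows of that length did. The STAT motif, TTC and GAA with any 3 bases between them and also searched on both strands, lay at bases 13 to 21 in Ifitm3, overlapping the second ISRE core, and at -10 to -2 in Ifitm6, against 8.3% of all windows. A TATAAA stood at -46 to -41 in Ifitm6 and, on the other strand, at -175 to -170 in Ifitm2, a motif held by 13.62% of windows on either strand. Letter matches describe these windows and are not measured binding sites. The RefSeq start used for Ifitm2 lies 3725 bases inside its gene model and that for Ifitm1 647 bases inside, so those genes also have other starts. For Ifitm1 that distance matches the latest start among its entries in the table (148153975), which was above 0 in CX45 alone. The Ifitm1 signal of 2C, 8C and CX22 was listed under entries with earlier starts. By these mm9 positions, the start at 148153927 lies within the 250 searched bases, so its own window was covered for the most part. The start at 148153328 lies outside them, and its own window was not searched.

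The coding sequences of Ifitm2 and Ifitm3 (435 and 414 bases) were identical over 76.3% of the longer one, the closest pair of the 4 genes. The other pairs ranged from 50.6% to 63.5%. Of the 50-base windows of the Ifitm3 transcript, 63 of 629 also occurred in transcripts of other genes, 20 of them in Ifitm2 and 15 in Ifitm1. For Ifitm2 the share was 48.5%, mostly with transcripts of predicted genes and for 20 of 294 windows with Ifitm3, for Ifitm1 6.4%, and for Ifitm6 0. With windows of 100 bases the share was 0 for Ifitm1, Ifitm3 and Ifitm6. For Ifitm2 it was then 34.9%, with predicted genes alone and 0 windows with Ifitm3. Read length and the treatment of reads with several matches were not stated in the labels, so the Ifitm2 level is the least certain of the 4.

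Ifitm3 was among the most abundant transcripts of the 2C libraries and near the floor in 8C. Its level was 705 and 720 FPKM in 2C, 1.55 and 0 in 8C, 505 and 628 for CX22, and 11.1 and 21.3 in CX45. Every 2C and CX22 library stood above every CX45 library, and every CX45 library above the 8C libraries. How many other genes were ordered so was not counted. The order of the group means was 2C (713), CX22 (566 ± 87.1, SD, n = 2), CX45 (16.2 ± 7.22) and 8C (0.777 ± 1.10).

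By rank Ifitm3 stood at places 82 and 75 among the genes of the 2C libraries, 125 and 90 in CX22, 4091 and 2973 in CX45, and 7303 in the first 8C library. The implied fragments behind these values were 5735 and 6255 in 2C but 18.8 in the first 8C library. The 0 of the second 8C library is a listed value, and 3 fragments there would have come to 0.218 FPKM. A listed 0 in this table need not mean absence. Gapdh, the gene of a glycolytic enzyme with many pseudogene copies in the genome, read 0 in 4 of the 8 libraries, and its highest value was 0.519 FPKM. Whether this bears on Ifitm3 was not tested.

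Ifitm2 ran the other way. Its level was 0.265 and 0.621 FPKM in 2C, 401 and 319 in 8C, 4.24 and 8.30 for CX22, and 200 and 68.0 in CX45. The order of the group means was 8C (360 ± 57.9, SD, n = 2), CX45 (134 ± 93.4), CX22 (6.27 ± 2.87) and 2C (0.443). The 2C values rest on about 2.1 and 5.2 implied fragments, so a ratio to them is loose, while the 8C values rest on 4686 and 4238. The pair of CX45 libraries differed widely, with the first well above the other.

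Ifitm1 was the steady member. It stood at 39.003 and 38.903 FPKM in 2C, 19.4 and 33.1 in 8C, 48.0 and 45.6 for CX22, and 92.3 and 50.8 in CX45. Its group means spanned 26.2 (± 9.71, SD, n = 2) in 8C to 71.6 (± 29.3) in CX45, with 38.95 in 2C and 46.8 (± 1.74) in CX22 between them. Of the steps between neighbours in this order, CX45 against CX22 and CX22 against 2C did not pass the test given further on, and 2C against 8C was not tested.

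**Figure D1:**
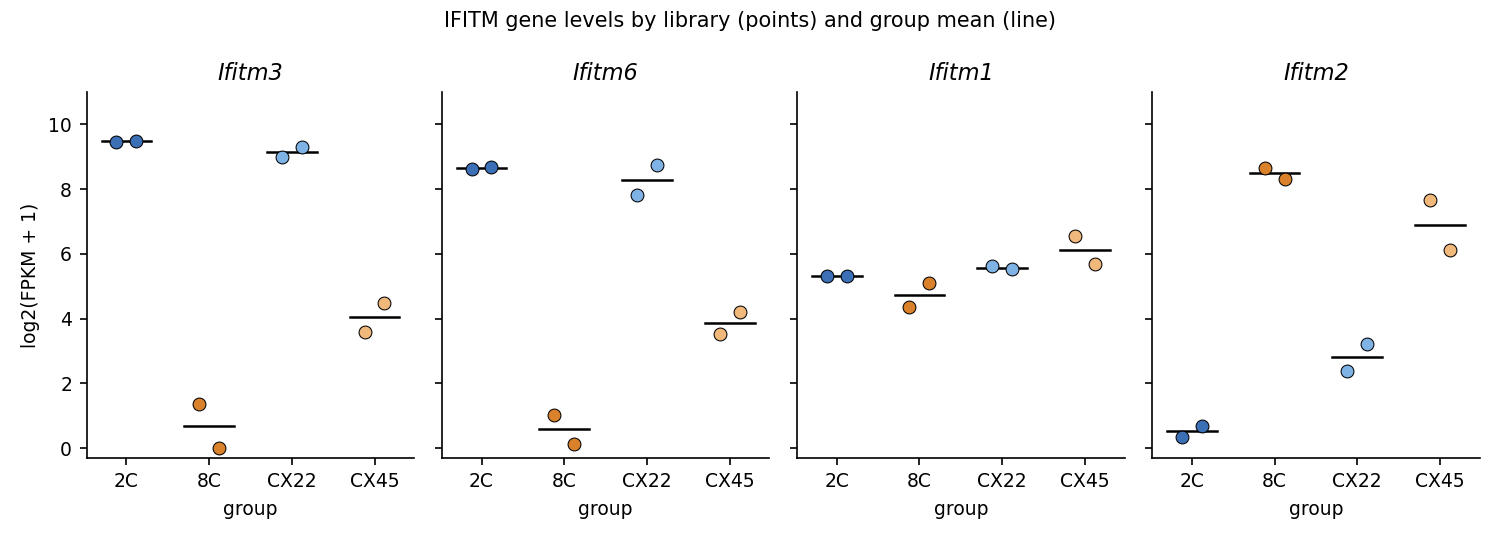
Each panel shows 1 IFITM gene, with log2(FPKM + 1) on the vertical axis and the 4 groups on the horizontal axis; points are libraries (2 per group) and lines are means of the log values. Ifitm3 and Ifitm6 were high in 2C and CX22 and low in 8C and CX45, Ifitm2 was the reverse, and Ifitm1 differed least between groups.

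Ifitm6, the gene next to Ifitm3, kept nearly the same profile as Ifitm3. Its level was 389 and 410 FPKM in 2C, 1.03 and 0.0911 in 8C, 224 and 426 for CX22, and 10.6 and 17.6 in CX45. The other family members were scarce. Ifitm10 was listed at 0 in all 2C and CX22 libraries and stood at 5.08 and 2.94 FPKM in 8C and 2.98 and 3.14 in CX45. Ifitm5, known from bone-forming cells, was above 0 in 1 library only (0.688 FPKM, second 8C), and Ifitm7 was listed at 0 in all 8. Of 7 other genes of the wider CD225 family 0 passed the filter on low values, and their sum reached at most 3.10 FPKM (first CX45).

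Summed over Ifitm1, Ifitm2, Ifitm3 and Ifitm6, the FPKM of the family was 1134 and 1170 in 2C, 423 and 353 in 8C, 781 and 1107 for CX22, and 314 and 158 in CX45. Ifitm3 made up 62.2% and 61.6% of that sum in 2C and 64.6% and 56.7% in CX22. Ifitm2 made up 94.8% and 90.6% in 8C. The CX45 libraries were mixed: Ifitm2 gave 63.7% and 43.1%, Ifitm1 29.4% and 32.2%, and Ifitm3 3.52% and 13.5%. Ifitm1 thus held a larger share in CX45 than in any library of the other groups, where it ranged from 3.33% to 9.39%. In bulk embryos, fewer cells that make a transcript and less of it per cell cannot be told apart.

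**Figure D2:**
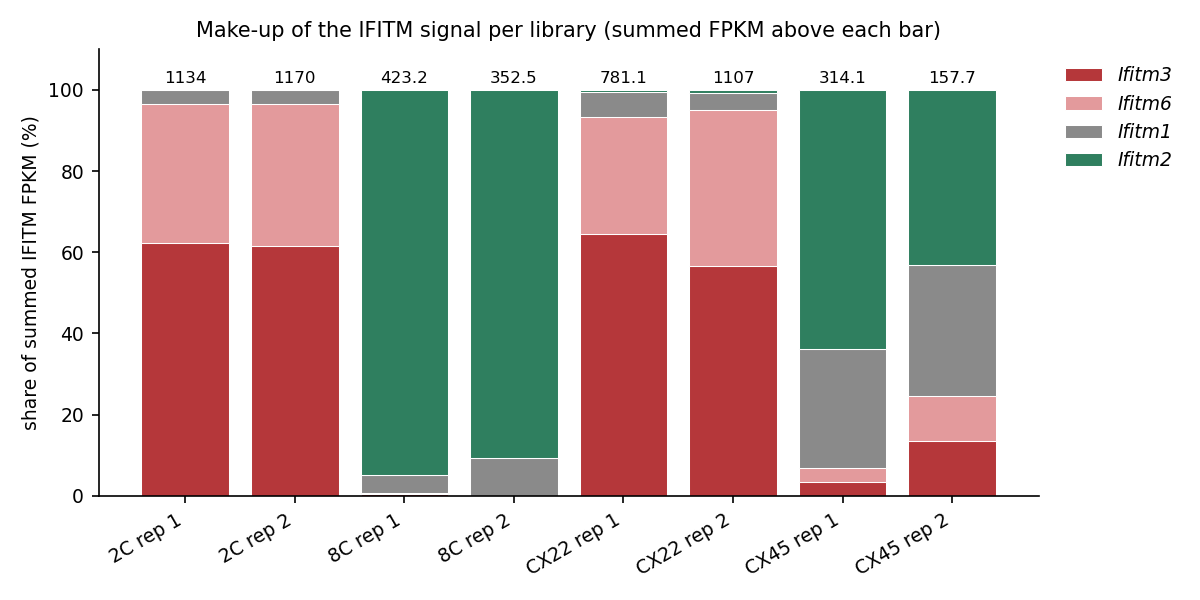
Stacked bars give the share (%) of the summed FPKM of Ifitm1, Ifitm2, Ifitm3 and Ifitm6 held by each gene in each library, with the summed FPKM above the bar. Ifitm3 and Ifitm6 filled most of the 2C and CX22 bars, Ifitm2 94.8% and 90.6% of the 8C bars, and the CX45 bars were split between Ifitm2 and Ifitm1 with a smaller part of Ifitm3 and Ifitm6.

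The comparison of CX45 with CX22 sets no level from the libraries behind the choice of the genes against another, although its estimate of spread also draws on the 8C libraries. Ifitm3 fell and Ifitm2 rose. Without the first 8C library the adjusted p by limma was 0.0305 for Ifitm3 and 0.041 for Ifitm2. The mean level of Ifitm3 was 35.0 times higher in CX22, and limma, fitted to log2(FPKM + 1) over 11853 genes, gave a log2 fold change of -5.10 (SE 0.57, 95% interval -6.60 to -3.61, Benjamini-Hochberg adjusted p = 0.0061). The mean level of Ifitm2 was 21.4 times higher in CX45, with a log2 fold change of 4.08 (SE 0.61, 95% interval 2.47 to 5.68, limma adjusted p = 0.0104). Adding 1 FPKM understates the change of low values, here mainly of Ifitm2 in CX22.

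Ifitm1 did not pass in that comparison. Its log2 fold change was 0.54 (SE 0.41, 95% interval -0.54 to 1.63, limma adjusted p = 0.358). Taking the highest single RefSeq entry of the gene in place of the sum turned its sign (-0.70), also uncalled. Ifitm6 fell like Ifitm3, with a log2 fold change of -4.40 (SE 0.52, limma adjusted p = 0.00665).

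To be called, a gene needed an adjusted p under 0.05 and a log2 fold change of 1 or more in either direction. By that rule 2 of the 3 members were called in CX45 against CX22, where 36.6% of all genes tested were called (23.1% higher, 13.5% lower). A share of that size makes a call by itself no particular feature, and the 4335 calls became 2444 to 2540 on leaving out either 8C or either CX45 library. By size, Ifitm3 was at place 43 from the lowest of the 11853 fold changes, Ifitm6 at place 105 from the lowest, and Ifitm2 at place 323 from the highest. The median gene stood at 0.47 and was near 0 under quantile normalization, where Ifitm3 stood at -5.87 and Ifitm2 at 3.80. Of all calls, 63.1% were higher in CX45, but 49.2% under quantile normalization and 53.3% with libraries scaled to the same median.

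Leaving out either CX45 library gave -4.66 and -5.55 for Ifitm3 and 3.30 and 4.85 for Ifitm2, all called. With a pseudocount of 0.1 FPKM in place of 1, Ifitm3 stood at -5.19 with an adjusted p of 0.0501 by limma, just outside the threshold. The sums of oocyte genes moved with Ifitm3 here (1915 and 2514 FPKM in CX22, 133 and 153 in CX45), with 5 or 6 of 6 genes at 1 FPKM or more in each of those libraries. In CX22 these sums came mainly from Oosp1 (1267 and 1705) and Bmp15 (523 and 691). Oosp1, Bmp15, Gdf9 and Nlrp5 were called lower in CX45. Zp3 and Zar1 were uncalled, with log2 fold changes of 0.68 and -0.5 (limma adjusted p = 0.412 and 0.823), so Zp3 did not move with Ifitm3. The 6 genes of the 2-cell stage summed to 689 and 549 FPKM in CX22 and to 68.0 and 750 in CX45. Of these, Zscan4d (107 and 148 against 11.7 and 26.7) and Zscan4c fell, with log2 fold changes of -2.76 and -2.78 (limma adjusted p = 0.0188 and 0.0302). The high sum of the second CX45 library came from Tcstv1 (289), Tcstv3 (254) and Zfp352 (179). The CX45 library with the higher sum was also the one with the higher Ifitm3 and the lower Ifitm2 level. The part of any marker in the Ifitm result was not tested.

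**Figure D3:**
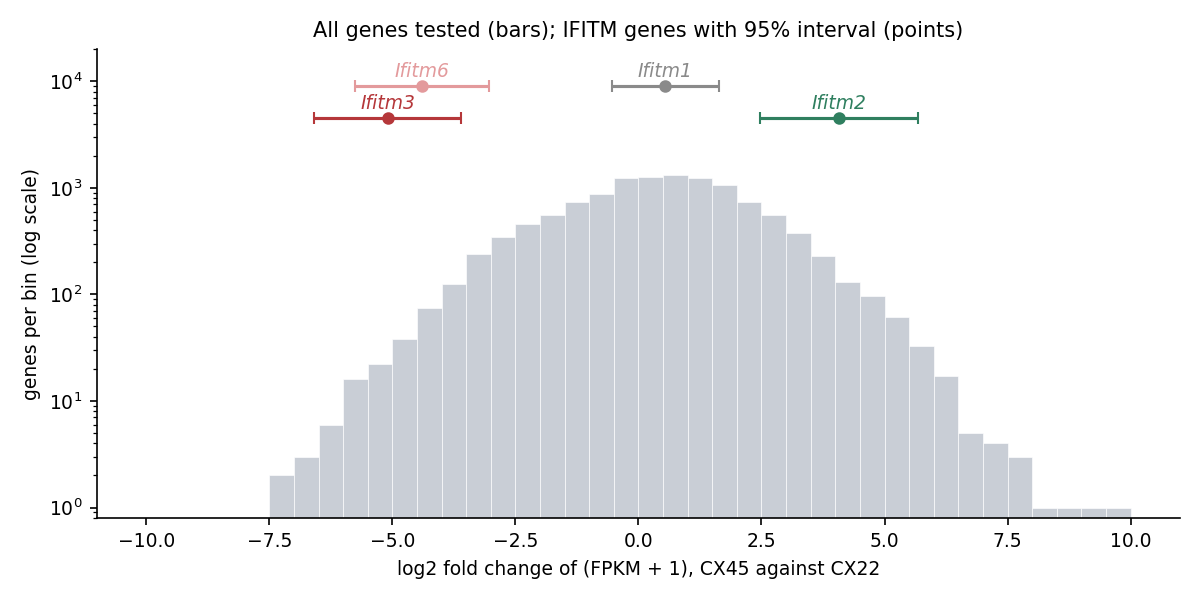
Grey bars count the genes per bin of log2 fold change of (FPKM + 1) in CX45 against CX22 (log vertical axis); coloured points with bars give each IFITM gene's fold change and 95% interval from limma, at an arbitrary height. Ifitm3 (-5.10) and Ifitm6 (-4.40) lie in the left tail, Ifitm2 (4.08) in the right tail and Ifitm1 (0.54) near the centre.

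For 8C against 2C, the contrast behind the choice, the values are given without a test. The mean FPKM of Ifitm3 was 917 times higher in 2C and that of Ifitm2 813 times higher in 8C. Among all fold changes of that contrast Ifitm3 stood at place 8 from the lowest and Ifitm2 at place 8 from the highest, while Ifitm1 (38.95 against 26.24 FPKM) stood in the middle ranks. Of all genes tested, 37.1% were called (16.4% higher, 20.7% lower in 8C), and nothing is read from that share for the members. Without the first or the second 8C library the 4397 calls became 1484 and 1416.

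CX22 against 2C shares the 2C libraries with that contrast. Since Ifitm3 was chosen for its 2C level, its values (705 and 720 FPKM in 2C, 505 and 628 for CX22) are given without a test. Neither Ifitm1 nor Ifitm2 was called, where 3.88% of all genes were (0.599% higher, 3.28% lower). Ifitm1 differed by 0.26 on the log2 scale (95% interval -1.07 to 1.59, limma adjusted p = 0.913). Ifitm2 stood at 6.27 FPKM in CX22 against 0.443 in 2C, a log2 difference of 2.27 (0.31 to 4.24, limma adjusted p = 0.241). It was above both 2C values in both CX22 libraries, a weak description with so few libraries. With the 2C libraries kept as 2 samples the Ifitm2 difference was 2.29 and was called (limma adjusted p = 0.0436), but not with the replicate number added as a block (0.0701). The 460 genes called became 225 and 203 without the first or second 8C library and 1110 without the second CX22 library.

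CX45 against 8C shares the 8C libraries with the contrast behind the choice. Ifitm3 stood at 11.1 and 21.3 FPKM in CX45 against 1.55 and 0 in 8C, given without a test because its 8C level was behind the choice. Neither Ifitm1 nor Ifitm2 was called, where 0.658% of all genes were (0.456% higher, 0.202% lower). Ifitm2 differed by -1.61 (95% interval -3.21 to 0, limma adjusted p = 0.259), and by -2.38 and -0.84 without the first and the second CX45 library. Ifitm1 differed by 1.40 (0.31 to 2.49, limma adjusted p = 0.178), by 0.88 with libraries scaled to the same median and by 0.16 with its highest single entry, all uncalled. For Ifitm1 and Ifitm2 the libraries of these groups did not overlap, a weak description at 2 libraries a group. How many other genes did so was not counted. The 78 calls of this comparison became 0 without any 1 of the 8C, CX22 or CX45 libraries.

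Ifitm1 was listed under 4 overlapping RefSeq entries that share an end at 148155726. The entry with the earliest start (148153328) stood at 26.7 and 32.2 FPKM in 2C, 19.4 and 33.1 in 8C, 32.9 and 24.5 in CX45, and was listed at 0 in both CX22 libraries. The next entry (start 148153927) stood at 12.3 and 6.74 in 2C, 0 in 8C, 48.0 and 45.6 for CX22, and 31.2 and 16.3 in CX45. The entry with the latest start (148153975) was above 0 in CX45 alone (28.26 and 10.02), and the fourth, with the same start, was at 0 throughout. The make-up of the Ifitm1 signal thus differed between groups more than its sum did. Splitting fragments among overlapping entries is an estimate made by the software, so the entries are less certain than the sum.

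**Figure D4:**
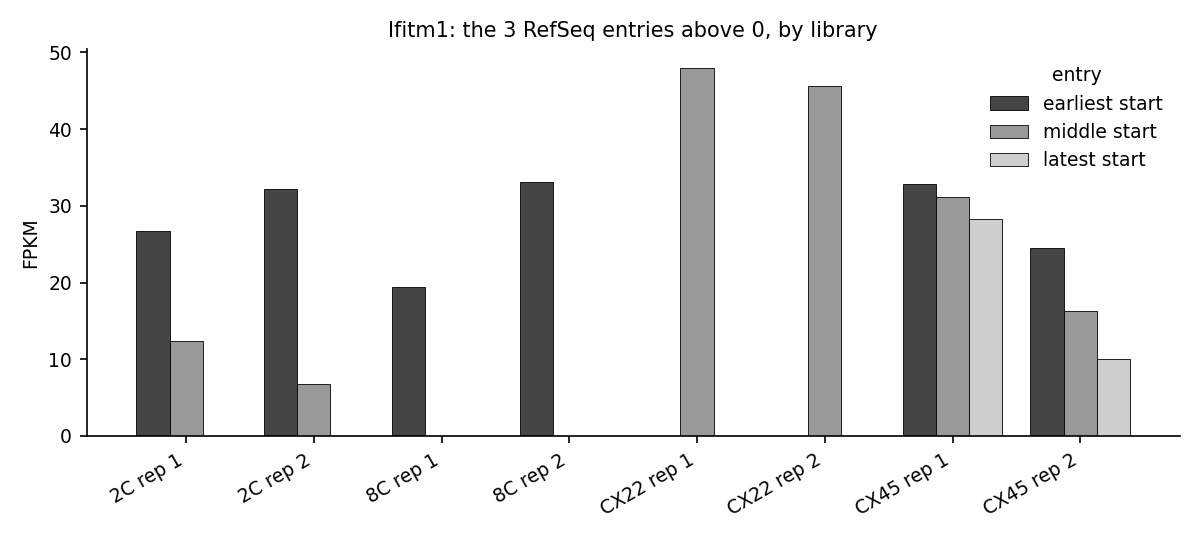
Bars give the FPKM of the 3 Ifitm1 RefSeq entries above 0 in each library, shaded by the position of their start. The entry with the earliest start was at 0 in CX22, where the middle entry stood at 48.0 and 45.6 FPKM, and the entry with the latest start was above 0 in CX45 alone.

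Of 27 other genes with a locus within 250 kb of Ifitm3, 13 passed the filter on low values. In CX45 against CX22, 5 of these rose and 0 fell by limma, near the background of 36.6% of all genes (23.1% higher, 13.5% lower). Their median log2 difference was 1.47, against 0.47 for all genes. Ptdss2, a phosphatidylserine synthase, rose from 8.89 and 15.4 FPKM in CX22 to 71.5 and 89.7 in CX45 (log2 fold change 2.67, SE 0.39, limma adjusted p = 0.00976). Bet1l, a vesicle-fusion protein of the Golgi, rose from 0 and 3.78 to 75.9 and 61.6 (4.99, SE 0.78, adjusted p = 0.0114).

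Ric8a, a chaperone of G protein subunits, and Psmd13, a proteasome subunit, were listed at 0 in CX22 and stood at 4.28 and 2.90, and at 1.86 and 7.71 FPKM, in CX45. Ano9, a phospholipid scramblase, stood at 0 and 0.0823 in CX22 and 1.84 and 1.70 in CX45. The call of Ptdss2 was lost without the second CX45 library (adjusted p = 0.0571) and that of Bet1l without either CX45 library (0.0708 and 0.0633). The call of Psmd13 was lost in 8 of 17 alternatives and that of Ano9 under quantile normalization (0.157). The 5 neighbours called became 2 without the second CX45 library. In 8C against 2C, 4 of the 13 rose (Ptdss2, Bet1l, Psmd13 and Ric8a) and 0 fell, beside 16.4% and 20.7% of all genes. Those 4 calls became 1 and 0 without the first or second 8C library and 2 without either CX45 library. In CX22 against 2C, 1 fell (Ano9, a call lost in 8 of 16 alternatives), and in CX45 against 8C, 0 were called, with 0 at an unadjusted p under 0.05.

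**Figure D5:**
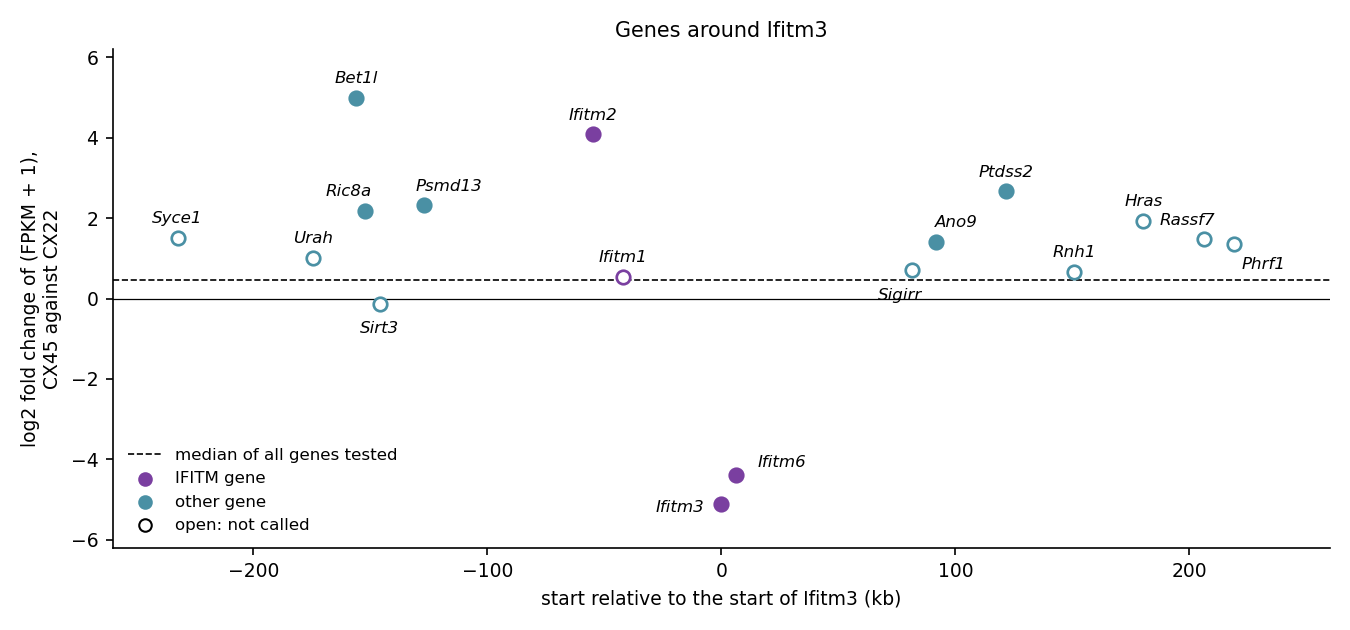
The horizontal axis gives the start of each tested gene relative to the start of Ifitm3 (kb) and the vertical axis its log2 fold change of (FPKM + 1) in CX45 against CX22; filled points were called by limma, open points were not, and the dashed line is the median of all genes tested (0.47). Ifitm3 and Ifitm6 are the lowest points, and Ifitm2, at -54.8 kb, lies among the higher ones.

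Over the 7 samples of the fit, the genes most like Ifitm3 were Tesc (Pearson r = 0.9987), Abl2 (0.9983), Ifitm6 (0.9978), Mpp5 (0.9966), Tmprss11a (0.9965) and Gda (0.9963). All 6 were high in 2C and CX22. Tesc, a calcium-binding protein, stood at 497 and 502 FPKM in 2C, 10.5 and 6.25 in 8C, 417 and 531 for CX22, and 35.6 and 62.1 in CX45. Such a profile was common: 720 of 6516 genes compared (11.05%) had an r over 0.95 with Ifitm3. All these values share the same libraries and their depth, and r is a description of 7 points in 2 level classes.

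Ifitm2 had an r of -0.9528 with Ifitm3 and was most like Hmgb1, a chromatin protein (0.9933), Mrpl23, a mitochondrial ribosomal protein (0.991), and Crnkl1, a splicing factor (0.9908), with 252 genes over 0.95. Ifitm1 had an r of 0.2911 with Ifitm3 and -0.1599 with Ifitm2. It was most like Ints6l (0.9613), Plk2, a kinase (0.9573), and Tbpl1, a relative of the TATA-binding protein (0.954), and those 3 were the only genes over 0.95.

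Of 21 interferon genes, 17 were listed at 0 in all 8 libraries and 20 never reached 1 FPKM. The exception, Ifng, which encodes interferon gamma, stood at 8.94 and 9.78 FPKM in 2C, 0 and 0 in 8C, 0.0845 and 7.99 for CX22, and 3.07 and 6.71 in CX45. It was not called in any of the 4 comparisons by limma, nor at an unadjusted p under 0.05. In 8C against 2C (log2 difference -3.37) it was called under quantile normalization, with separate 2C libraries with or without the block, and without either CX22 library. It was also called in CX45 against CX22 without the second CX22 library. Of 6 receptor genes 3 were tested and 0 were called by limma in any comparison, with 1 lower in CX22 against 2C at an unadjusted p under 0.05. With separate 2C libraries 1 was called in 8C against 2C and 1 in CX22 against 2C, and under quantile normalization 1 in CX45 against CX22. Their summed level lay between 3.07 and 8.60 FPKM in every library.

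Of 12 tested signalling genes (of 19), 2 rose and 3 fell in 8C against 2C, 3 rose and 2 fell in CX45 against CX22, and 0 were called in the other 2 comparisons (2 up and 0 down in CX45 against 8C at an unadjusted p under 0.05). With 5 of 12 called, both counts were near the background of 37.1% and 36.6%. The first 5 became 1 without either 8C library, and the other 5 became 2 without either 8C library or the second CX45 library and 3 without the first. The medians were 0.04 and 0.07, against -0.04 and 0.47 for all genes. Jak2, the kinase of the interferon gamma receptor among others, stood at 338 and 338 FPKM in 2C, 5.49 and 8.66 in 8C, 228 and 317 for CX22, and 41.6 and 43.4 in CX45. It fell in 8C against 2C (log2 fold change -5.42, SE 0.37, limma adjusted p = 0.00222) and in CX45 against CX22 (-2.63, SE 0.30, adjusted p = 0.00647).

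Ptpn2, a phosphatase that acts on JAK kinases, ran the other way, from 138 and 130 FPKM in 2C to 434 and 499 in 8C, and from 144 and 128 in CX22 to 419 and 332 in CX45. It rose in 8C against 2C by 1.79 and in CX45 against CX22 by 1.45 (limma adjusted p = 0.00963 and 0.0102). Under quantile normalization it stood at 0.98 and 0.77 and was uncalled, and the first call was also lost without either 8C library (adjusted p = 0.0529 and 0.0634). Irf1, a transcription factor induced by interferon, was listed at 0 in both 8C libraries and stood at 6.68 and 6.36 in 2C, 9.09 and 5.06 for CX22, and 0.607 and 0.148 in CX45. It was called lower in both comparisons, and each call was lost without either 8C library (limma adjusted p = 0.0847 and 0.0868 for 8C against 2C, 0.0506 and 0.0505 for CX45 against CX22). The latter was also lost without the second CX45 library (0.0604).

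Of 48 listed interferon-stimulated genes, 11 were at 0 in all 8 libraries and 24 never reached 1 FPKM, and 20 were tested. In 8C against 2C, 1 rose and 4 fell (5 of 20, against 37.1% of all genes), and in CX45 against CX22, 3 rose and 1 fell (4 of 20, against 36.6%). The first count became 2 and 1 without the first and second 8C library, 8 without the first CX22 library, 3 without either CX45 library and 11 with separate 2C libraries. The other became 1 and 2 without the first and second CX45 library and 7 with separate 2C libraries. Medians were -0.29 and 0.45, beside -0.04 and 0.47 for all genes. In CX22 against 2C 1 fell, and in CX45 against 8C 0 were called, with 2 up and 0 down at an unadjusted p under 0.05.

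Oasl1, a relative of the 2-5A synthetases, stood at 12.3 and 11.2 FPKM in 2C and at no more than 0.396 in every other library. It fell in 8C against 2C (log2 fold change -3.43, SE 0.32, limma adjusted p = 0.00349) and in CX22 against 2C (-3.46, SE 0.32, adjusted p = 0.0111, but 0.116 with a pseudocount of 0.1, 0.0662 under quantile normalization and 0.052 with no trend in the variance). Ifi35, an interferon-induced protein, stood at 4.22 and 5.21 in 2C, 57.6 and 85.4 in 8C, 6.46 and 3.28 for CX22, and 53.0 and 39.3 in CX45. Its group means had the order of those of Ifitm2, with smaller changes. It rose by 3.64 in 8C against 2C and by 3.04 in CX45 against CX22 (limma adjusted p = 0.00826 and 0.00851). Leaving out the second 8C library ended the first call (0.0594) and leaving out the first CX45 library the other (0.0508). Cmpk2, a mitochondrial nucleotide kinase, fell in CX45 against CX22 from 4.87 and 4.01 to 0.427 and 0.346 (-1.97, SE 0.25, limma adjusted p = 0.00751).

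Among 11 tested genes of nucleic acid sensing (of 16), 1 rose and 2 fell in 8C against 2C and 1 rose and 2 fell in CX45 against CX22 (3 of 11, against 37.1% and 36.6% of all genes), with medians of -0.70 and 0.08. The first count became 0 without either 8C library and 5 with separate 2C libraries. The other became 1 without either 8C library or the first CX45 library and 5 with separate 2C libraries or quantile normalization. Zbp1, a sensor of Z-form nucleic acid, stood at 0 and 0 in CX22 and 5.58 and 5.35 FPKM in CX45. Ddx58, which encodes the RNA sensor RIG-I, stood at 10.96 and 11.24 in 2C and 0.985 and 0.150 in 8C. Its log2 fold change was -3.0 (SE 0.54, limma adjusted p = 0.0159), and both leave-outs of an 8C library ended the call (0.0564 and 0.0842), as they did for Cgas. Of 8 other tested restriction factors (of 10), 2 rose and 1 fell in each of these comparisons, near the background, and without the second 8C library 0 were called in either. Serinc3 rose and Marchf8 fell in both, and each of those calls was lost on leaving out at least 1 library.

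Of 19 tested enzymes that add or remove palmitate (of 27), 3 rose and 2 fell in 8C against 2C, and 4 rose and 2 fell in CX45 against CX22, with medians of -0.70 and 0.00. The 5 and 6 of 19 called compare with 37.1% and 36.6% of all genes, and the 5 became 3 without either 8C library and 9 without either CX22 library. Abhd17b, a depalmitoylase, stood at 92.6 and 91.3 FPKM in 2C, 1.27 and 1.57 in 8C, 119 and 88.4 for CX22, and 13.7 and 10.2 in CX45. Its log2 fold changes were -5.27 and -3.01 (limma adjusted p = 0.00222 and 0.00546). The transferase gene Zdhhc4 was listed at 0 or 0.0614 in 2C and CX22 and stood at 4.72 and 3.87 in 8C and 11.9 and 9.49 in CX45. In CX22 against 2C 1 of the 19 fell (Zdhhc12), and in CX45 against 8C 1 fell (Zdhhc2). Zdhhc12 stood at 3.83 and 3.04 FPKM in 2C, which alone took it past the filter, and was listed at 0 in every other library. Its limma adjusted p was 0.00478, but 0.0541 with no trend in the variance. With the 2C pair averaged, its own spread in the fit was 0, so these p-values rest on the spread of other genes. The Zdhhc2 call was lost in 11 of 16 alternatives, leaving out any 1 library of 8C, CX22 or CX45 among them.

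Of 6 tested modifiers and partners of the IFITM3 protein (of 7), 2 rose and 1 fell in 8C against 2C, and 3 rose and 1 fell in CX45 against CX22. The 3 and 4 of 6 called stand beside 37.1% and 36.6% of all genes, and with so few genes nothing is read from them. Medians were 0.79 and 1.45, against -0.04 and 0.47 for all genes. The 3 calls of 8C against 2C became 1 without either 8C library, and the 4 of CX45 against CX22 became 2 without the second CX22 or the first CX45 library. Zmpste24, a membrane protease reported to work with IFITM proteins, rose from 23.7 and 25.1 FPKM in CX22 to 130 and 106 in CX45 (log2 fold change 2.22, SE 0.21, limma adjusted p = 0.00498), and stood at 20.3 and 21.4 in 2C and 248 and 274 in 8C. Vcp, an ATPase that extracts ubiquitinated proteins from membranes, rose from 0.802 and 0 to 17.4 and 18.0 (3.80, SE 0.42, limma adjusted p = 0.00606). Fyn, a kinase that phosphorylates IFITM3, stood at 15.3 and 28.5 in CX22 and 1.26 and 1.72 in CX45. Its call (-3.15, limma adjusted p = 0.0166) was lost without either CX45 library, without the second CX22 library and with a pseudocount of 0.1.

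Of 15 tested genes known from primordial germ cells (of 17), 4 rose and 4 fell in 8C against 2C, 4 rose and 2 fell in CX45 against CX22, 1 fell in CX22 against 2C and 0 were called in CX45 against 8C (2 up and 3 down at an unadjusted p under 0.05). The 8 and 6 of 15 called in the first pair of comparisons stand beside 37.1% and 36.6% of all genes, with medians of 0.05 and 0.74. The 8 became 5 without either 8C library, and the 1 of CX22 against 2C became 0. Nanos3, an RNA-binding factor that keeps these cells alive, was listed at 0 in 2C and stood at 37.4 and 50.5 FPKM in 8C, 0 and 1.02 for CX22, and 32.2 and 44.2 in CX45. It rose in CX45 against CX22 (log2 fold change 4.77, SE 0.48, limma adjusted p = 0.00548).

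Nanog, a pluripotency factor, rose in the same comparison from 0.307 and 0.207 to 6.53 and 4.54 FPKM (2.36, SE 0.38, limma adjusted p = 0.0124). Kit, the receptor of stem cell factor, had its group means in the order of those of Ifitm3, with smaller changes. It stood at 25.1 and 25.2 in 2C, 1.57 and 1.31 in 8C, 22.01 and 28.23 for CX22, and 7.87 and 10.5 in CX45. Its fall in 8C against 2C was -3.43 (limma adjusted p = 0.00564). The call of Kit in CX45 against CX22 (-1.36, adjusted p = 0.033) was lost in 5 of 17 alternatives, each of which left out 1 library of 8C or CX45 or the second CX22 library.

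Sums of 10 cumulus and granulosa genes were 8.54 and 9.58 FPKM in 2C, 0.687 and 0.0308 in 8C, 5.22 and 4.83 for CX22, and 0.197 and 0.863 in CX45. The sums ran in the direction of Ifitm3, but different genes carried them. In CX22 they came from Foxl2 in the first library (5.15, and 0 in the second) and from Tnfaip6 (2.73) and Cyp19a1 (2.10) in the second. Star (3.39 and 3.46 in 2C) and Adamts1 (1.86 and 2.38) were listed at 0 in both CX22 libraries, unlike Ifitm3. Fshr, Ptx3 and Amh were at 0 in all libraries. Sums of 6 sperm genes also ran in that direction, with 19.6 and 18.7 in 2C, 0 and 0 in 8C, 42.9 and 32.9 for CX22, and 0 and 4.91 in CX45. They came mainly from Prm2, a protamine, in 2C and the second CX22 library (28.7) and from Tnp1 in the first (42.2), with Tnp2 and Smcp at 0 in all libraries. Sums of 8 fibroblast genes were 5.70 and 10.5 in 2C, 0.722 and 0.445 in 8C, 5.54 and 4.58 for CX22, and 4.55 and 0.933 in CX45. Sums of 8 blood and immune genes were 326 and 381 in CX45 against 33.9 and 85.2 in CX22, of which the globin gene Hba-a1 made up 286 and 347 and 23.6 and 71.2. Cd52, a leukocyte surface protein, stood at 18.8 and 19.6 in CX45 and 0 and 0.493 in CX22. It was called higher in CX45, as were Hba-a1 and Cd74 (limma adjusted p = 0.0143, 0.0337 and 0.014), where 36.6% of all genes were called. The other markers of that list did not follow: Lyz2 stood at 10.2 and 11.8 in CX22 and 9.61 and 7.45 in CX45, and Coro1a was uncalled. Ptprc, Tyrobp and Hbb-b1 never reached 1 FPKM, and Hba-a1 already stood at 106 and 104 in 2C. The part of these cells in the Ifitm results was not tested.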

How the data were processed

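Embryo RNA was sequenced by Smart-seq in 8 libraries (4 groups of 2), per the labels, and the authors deposited 1 table of FPKM values per RefSeq transcript. The submitters' processing notes list HISAT2 (with 4.8.2), Cufflinks (2.2.1) and the mm9 build; settings are not given there. Of 41876 entries, 41783 were matched by accession to a gene symbol and summed per gene (24791 genes); the 93 others held 0.006% to 0.212% of the summed FPKM, and 337 accessions stood at more than 1 locus.

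FPKM keeps no counts, so depth was inferred from the steps between low values, between 0.5 and 12 implied fragments. Of these, 61.0% to 64.9% came within 0.05 of a whole fragment, too few for a count test, so depths and floors are approximate. Genes reaching 1 FPKM in 2 or more libraries (11853, all 3 members among them) entered a limma fit (3.58.1, R 4.3.3; trended moderation) on log2(FPKM + 1) over 7 samples, the pair of 2C libraries averaged, with 3 residual degrees of freedom. P-values were Benjamini-Hochberg adjusted over all genes tested. The fit was tested on simulated data.

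Named genes were the members, per list up to 4 called genes by smallest p with a mean of 1 FPKM in a group, the other IFITM genes, neighbours within 250 kb, and the genes of most similar profile among those reaching 10 FPKM. The members and lists were chosen with earlier results of these data known. Same-numbered libraries did not deviate together (correlations of 0 to 0.11), so the numbers were not used as pairs. Start sites came from RefSeq on GRCm38.p6 and transcripts from GENCODE M21, while positions of table entries are mm9, and no coordinate was converted. Alternatives were the pseudocount, the filter, the scaling, the variance trend, separate 2C libraries, a replicate block, the highest entry per gene, and leaving out each library.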

Additional observations from a re-analysis of the deposited data

How the results depend on the processing

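No member changed direction in a called comparison, and the calls of Ifitm2 and Ifitm6 in CX45 against CX22 held in 17 of 17 alternatives. Ifitm3 there stood at -5.19 with a pseudocount of 0.1 (limma adjusted p = 0.0501) and was called in the other 16. With the 2C libraries separate, Ifitm2 in CX22 against 2C stood at 2.29 and was called (limma adjusted p = 0.0436). With a replicate block as well it stood at 2.29 and was not called (0.0701). The log2 difference of Ifitm3 in CX45 against 8C was 3.36 with separate 2C libraries, with or without the block, and is a description since its 8C level was behind the choice. With the replicate block and separate 2C libraries 6631, 1341, 709 and 5329 genes were called in 8C against 2C, CX22 against 2C, CX45 against 8C and CX45 against CX22. With separate 2C libraries alone the first 3 counts were 6693, 1611 and 1038. In CX22 against 2C, 122 genes were called with the filter at 5 FPKM, 245 under quantile normalization and 58 with no trend, against 460. In CX45 against 8C, 183 were called with a pseudocount of 0.1, 0 with no filter, 0 under quantile normalization, 0 with scaling to the same median, 2 with no trend and 12 with the highest single entry, against 78. Leaving out 1 library gave 1416 to 5620, 203 to 1110, 0 to 78 and 2444 to 4613 genes in the 4 comparisons in that order; a group left with 1 sample was assumed to vary like the others. Apart from fewer samples or genes, the cause of these shifts was not tested. Values under the 3-fragment floor, such as Ifitm3 in the second 8C library, limit what the depth can show.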
